A study of Homo sapiens with 4 samples.

Results

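The 38 genes described here encode the machinery of autophagy, and were chosen by name: the initiation, nucleation, conjugation and receptor genes, together with TFEB, LAMP1 and LAMP2. Of these, 37 were matched to the array through RefSeq accessions, by 56 of the 34127 probes, and NBR1 was not analysed here. All 37 genes passed the filter on dim probes, through 54 probes, out of 23485 genes tested. The rule uses gene names and no value of these arrays, though the genes were chosen with earlier results of these data known.

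SAS is a cell line of human tongue squamous cell carcinoma. SB cells are SAS cells carrying a lentiviral pLKO.1 construct that expresses an shRNA (shRNA-B) against AEG-1, a protein also named LYRIC or metadherin and encoded by MTDH. SCt cells, the control, are described as carrying pLKO.1 vector in the labels and a scrambled shRNA in the methods of the study. Both lines were selected with puromycin at 2 μg/ml for 14 days and kept as stable clones, and a single shRNA sequence was used, so that what the shRNA did and what differed between the clones cannot be told apart. On each of 4 dual-channel arrays, labelled as biological replicates, SB RNA was read in red and SCt RNA in green. The labels do not say whether the 4 RNA pairs came from separate cultures, so the p-values measure the spread between these arrays, which may be technical. No array had its dyes swapped (0 of 4), so a dye effect and a difference between the lines cannot be told apart.

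Autophagy encloses cytoplasm in a double membrane and delivers it to the lysosome for degradation. The ULK kinase complex starts the process, a class III PI3-kinase complex marks the growing membrane with PI3P, and ubiquitin-like conjugation attaches proteins of the ATG8 family (LC3 and GABARAP) to its lipid. Cargo receptors bind ATG8 proteins on one side and the cargo on the other, and TFEB is a transcription factor of lysosomal and autophagy genes. Carcinoma cells are known to use autophagy to survive a shortage of nutrients, and AEG-1 has been described as promoting protective autophagy, which is why these transcripts were compared between SB and SCt cells.

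TFEB binds an E-box in many lysosomal promoters. The promoters of 33 of the 38 genes were found among 27305 human promoters of RefSeq (GRCh38.p14), each running from 250 bases before the start of the gene to 50 after it. The palindrome TCACGTGA, which reads alike on both strands and contains the shorter E-box CACGTG, was in 1.04% of all promoters and in 2 of these 33 (6.06%), those of ATG3 and LAMP1. CACGTG alone was in 7.43% of all promoters and in 3 of the 33 (9.09%), ATG14 being the third. Of 4 sequences printed 5′ to 3′ along the gene, the first belongs to ATG16L2, the machinery gene whose transcript passed the test, and the next to the machinery genes with the palindrome. The last belongs to GAA, a lysosomal gene outside the machinery whose transcript passed the test and whose promoter holds the palindrome. Of 90 promoters of other autophagy and lysosome genes 8 held it (8.89%), and GAA was the 1 gene of these 8 that passed; ATP6V0D1, CTSA, MCOLN1, NRBF2, RRAGB, TSC2 and VPS11 did not. The capitals mark TCACGTGA.
ATG16L2, chr11:72814161-72814460, plus strand: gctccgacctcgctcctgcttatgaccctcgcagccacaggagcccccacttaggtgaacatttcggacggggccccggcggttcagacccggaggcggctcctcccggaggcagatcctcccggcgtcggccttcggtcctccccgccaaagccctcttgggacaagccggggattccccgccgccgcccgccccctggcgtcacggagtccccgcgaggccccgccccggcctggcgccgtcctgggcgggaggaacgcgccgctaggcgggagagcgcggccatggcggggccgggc
ATG3, chr3:112561913-112562212, minus strand: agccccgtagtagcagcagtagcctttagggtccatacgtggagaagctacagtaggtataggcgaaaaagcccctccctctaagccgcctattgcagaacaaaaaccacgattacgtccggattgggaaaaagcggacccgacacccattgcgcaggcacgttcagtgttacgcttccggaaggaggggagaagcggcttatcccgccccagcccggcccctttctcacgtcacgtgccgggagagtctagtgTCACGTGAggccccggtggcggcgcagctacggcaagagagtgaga
LAMP1, chr13:113296989-113297288, plus strand: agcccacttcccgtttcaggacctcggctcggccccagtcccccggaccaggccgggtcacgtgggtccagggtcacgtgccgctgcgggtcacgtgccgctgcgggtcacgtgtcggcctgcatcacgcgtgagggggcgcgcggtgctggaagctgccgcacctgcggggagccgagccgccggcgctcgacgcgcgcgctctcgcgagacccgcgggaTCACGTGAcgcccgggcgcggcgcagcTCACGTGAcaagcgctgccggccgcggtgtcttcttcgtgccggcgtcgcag
GAA, chr17:80101331-80101630, plus strand: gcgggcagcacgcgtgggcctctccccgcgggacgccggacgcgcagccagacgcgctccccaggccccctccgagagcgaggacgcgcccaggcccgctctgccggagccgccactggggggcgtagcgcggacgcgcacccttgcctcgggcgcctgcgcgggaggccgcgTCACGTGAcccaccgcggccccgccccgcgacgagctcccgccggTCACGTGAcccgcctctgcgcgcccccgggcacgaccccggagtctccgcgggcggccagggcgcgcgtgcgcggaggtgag
The window of LAMP1 held 2 palindromes among 6 E-boxes, and that of GAA held 2 palindromes. The window of ATG16L2 held no E-box. A match of letters is a description and does not show that a factor binds there.

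The AEG-1 transcript itself was far lower in SB cells. For the MTDH probe, the log2 ratio (SB over SCt) was -3.18, -3.01, -3.12 and -3.41 on the 4 arrays, with a mean of -3.18 ± 0.17 (SD, n = 4), a 9.07-fold lower level (limma adjusted p = 5.22e-10). In RNA from a whole culture, fewer cells with a transcript and less of it per cell cannot be told apart. Between 84.7% and 90.3% of the non-control spots were well above background in a channel, and the median intensity per array was 655 to 875 in red and 362 to 588.5 in green. The log2 ratios of different arrays correlated weakly over the probes (Pearson r from 0.0473 to 0.461 across probes, which are not independent replicates). The observed log ratios of the spike-in controls rose with the designed ones by a slope of 0.796 to 0.841, that is, below 1. On all 4 arrays, both channels were well above background for all 11 epithelial marker genes, but also for 5 of 6 leukocyte markers, 3 of 3 endothelial markers and 3 of 6 fibroblast markers, so that flag alone does not show that a gene was expressed.

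Under the loess and normexp processing, the transcripts of the autophagy machinery differed little between SB and SCt cells. A gene was represented by its brightest tested probe, and its mean log2 ratio was tested against 0 with limma over all 28507 tested probes. ATG16L2, a paralog of the ATG16L1 subunit of the conjugation enzyme, was lower in SB cells and was the 1 gene of 37 past an adjusted p of 0.05. Over all genes, 3.51% passed, 1.26% as higher and 2.26% as lower in SB cells, so that 1 of 37 (2.70%) is close to the background share. The log2 ratios of the 37 genes ran from -0.31 to 0.22, with a median of -0.03 against 0.01 over all genes. With this processing, the 95% interval of each of the 37 lay within 1.5-fold in either direction. The same held for 99.2% of all genes. The bound farthest from 0 corresponded to 1.37-fold, for ULK2, and the next, for ATG16L2, to 1.36-fold. These bounds were not worked out for other settings, in which the log2 ratios of the 37 ranged more widely. They ran from -0.42 to 0.24 with the scanner software's ratios and from -0.40 to 0.22 with normexp without an offset. With median centring they ran from -0.35 to 0.36. The bounds were not adjusted for the spike-in slopes below 1.

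**Figure D1:**
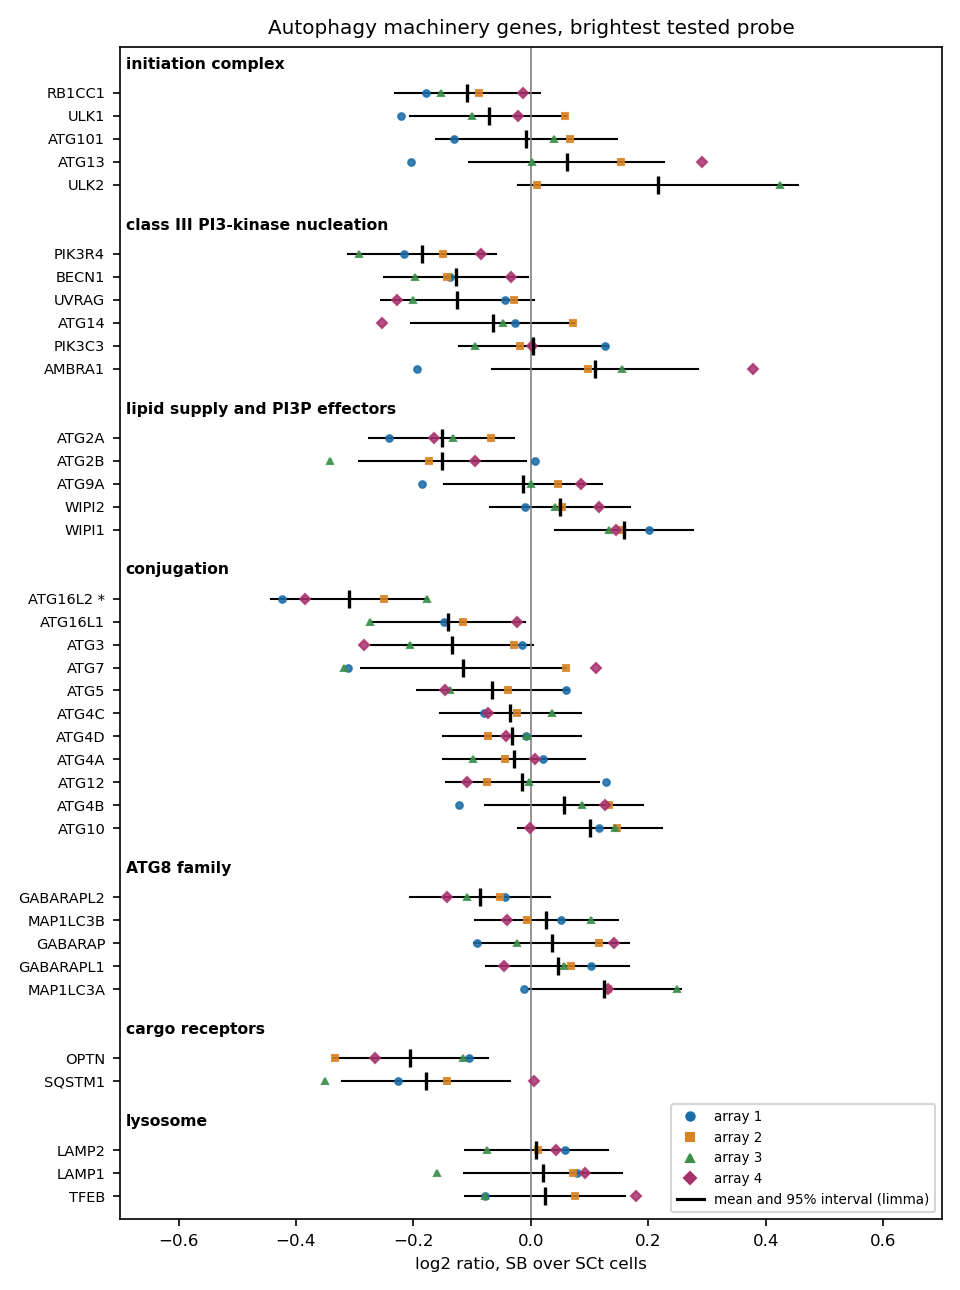
Log2 ratio of SB over SCt cells (x axis) of the 37 autophagy machinery genes, grouped by role (y axis), by the brightest tested probe. Symbols are the 4 arrays, the vertical bar is their mean and the horizontal line its 95% interval from limma; the asterisk marks ATG16L2, the gene past an adjusted p of 0.05, whose 4 arrays lie between -0.42 and -0.18.

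Of the 37 genes, 22 had a log2 ratio below 0 (59.5%), against 44.6% of all genes. Of the 35 with values on all 4 arrays, 11 lay below 0 on every array and 1 above 0 on every array, while the shares over all genes with 4 values were 12.3% and 14.1% (26.5% with 1 sign on all arrays). At an unadjusted p under 0.05 in limma, 8 of 37 were lower and 1 was higher in SB cells, against 8.98% and 9.16% of all genes (18.1% in either direction). The excess below 0 depended on the normalization, and so did the sign of several genes that lay below 0 on every array: with median centring RB1CC1 had 0.02, BECN1 0.04, ATG3 0.05 and GABARAPL2 0.07. With median centring in place of loess 13 of the 37 lay below 0 (35.1%), as did 35.6% of all genes, and the median of the 37 was 0.07, against 0.07 over all genes. The median SD between arrays was 0.105 over the 37 genes on the log2 scale, and the 4 array medians of the 37 were -0.06, -0.01, -0.08 and -0.02.

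**Figure D2:**
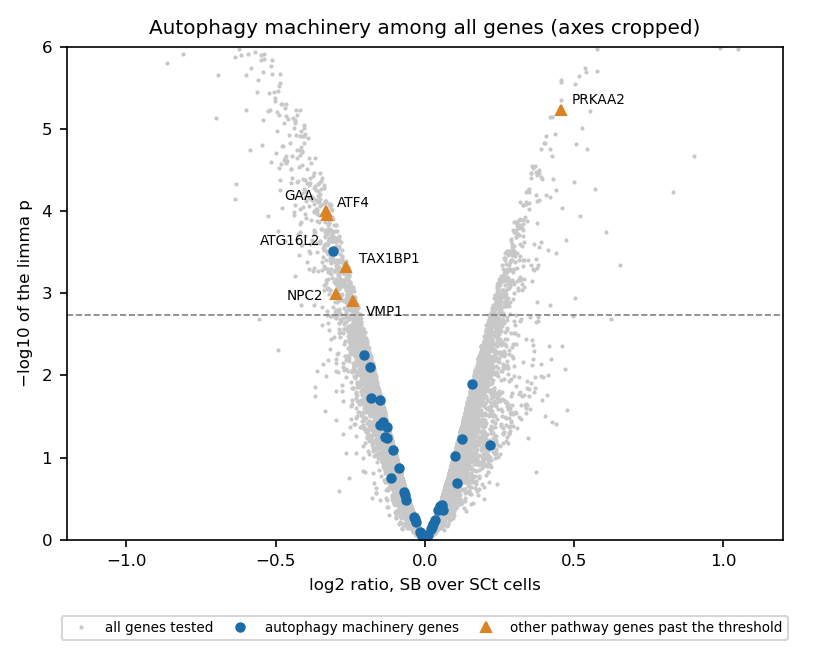
Mean log2 ratio of SB over SCt cells (x axis) and −log10 of the unadjusted limma p (y axis) for all genes tested (grey), the autophagy machinery (blue circles) and the other autophagy and lysosome genes past the threshold (orange triangles). The dashed line marks an adjusted p of 0.05; 38 genes lie outside the axes. ATG16L2 is the machinery gene above the line, and PRKAA2 is the orange gene on the higher side.

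None of the 5 genes of the initiation complex passed the test, nor did any reach an unadjusted p under 0.05 in limma. ULK1, the kinase that receives signals from mTORC1 and AMPK, had a log2 ratio of -0.07 ± 0.12 (SD, n = 4), with array values of -0.22, 0.06, -0.10 and -0.02. RB1CC1, the FIP200 scaffold of the complex, lay below 0 on all 4 arrays at -0.11 ± 0.07. Its adaptor subunit ATG13 had 0.06 ± 0.21, with 1 array at -0.20 and another at 0.29, so that its arrays lay on both sides of 0. ATG101, the partner of ATG13, had -0.01 ± 0.11 over 3 arrays. The highest log2 ratio of the machinery belonged to ULK2, the close relative of ULK1, at 0.22 ± 0.29. It rested on 2 arrays with 0.01 and 0.42, and its 95% interval of -0.02 to 0.46 included 0 (limma adjusted p = 0.315). The other 2 probes of ULK2 were not well above background on any array.

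The 6 genes of the class III PI3-kinase complex had a median log2 ratio of -0.09, and none passed. PIK3R4, the VPS15 regulatory subunit, had -0.22, -0.15, -0.29 and -0.08 on the 4 arrays. Its mean of -0.19 ± 0.09 was below 0 on every array but missed the threshold (limma adjusted p = 0.106), with an interval of -0.31 to -0.06. BECN1, or Beclin 1, the scaffold of the complex, had -0.13 ± 0.07 and also lay below 0 on all 4 arrays (limma adjusted p = 0.244). The same held for UVRAG, the subunit of the endosomal form of the complex, at -0.13 ± 0.10. The size of the UVRAG difference depended on the processing. It was -0.30 with the scanner software's ratios (limma adjusted p = 0.0491) and with the series table (limma adjusted p = 0.0547). With median centring it was also -0.30 (limma adjusted p = 0.00902). ATG14, which directs the complex to autophagy, had -0.06 ± 0.14, and PIK3C3, the VPS34 catalytic subunit, had 0.00 ± 0.09. AMBRA1, an activator of the complex, spread most among these 6, from -0.19 on array 1 to 0.38 on array 4, with a mean of 0.11 ± 0.24. Thus 3 of these 6 genes lay below 0 on every array with loess, beside 12.3% of all genes with 4 values. With median centring BECN1 was 0.04 and PIK3R4 -0.07 (limma adjusted p = 0.596 and 0.432), while UVRAG stayed at -0.30.

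The genes of lipid supply and PI3P binding pointed both ways. ATG2A and ATG2B, which transfer lipid to the growing membrane, had -0.15 ± 0.07 and -0.15 ± 0.15, and ATG2A lay below 0 on all 4 arrays (limma adjusted p = 0.169 and 0.238). ATG9A, the scramblase that supplies membrane, had -0.01 ± 0.12. WIPI2, the PI3P effector that recruits ATG16L1, had 0.05 ± 0.05. WIPI1, a related PI3P-binding protein, was the 1 machinery gene above 0 on all 4 arrays. Its array values of 0.20, 0.15, 0.13 and 0.14 gave 0.16 ± 0.03, the smallest SD of the 37, with an interval of 0.04 to 0.28. WIPI1 still missed the threshold (limma adjusted p = 0.135).

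Among the 11 conjugation genes, 9 had a log2 ratio below 0 (81.8%), against 44.6% of all genes, and ATG16L2 passed the test. With median centring ATG3 (0.05), ATG12 (0.08) and ATG4C (0.05) turned above 0. ATG4A, ATG4D, ATG5, ATG7, ATG16L1 and ATG16L2 stayed below 0. The log2 ratio of ATG16L2 was -0.42 on array 1, -0.25 on array 2, -0.18 on array 3 and -0.39 on array 4. All 4 arrays lay below 0, with a mean of -0.31 ± 0.12 (SD, n = 4) and an interval of -0.44 to -0.18, which made it 1.24-fold lower in SB cells (limma adjusted p = 0.0171). The call needed all 4 arrays or the absence of array 4: the adjusted p was 0.0761, 0.0621 and 0.0631 without arrays 1, 2 and 3, and 0.00984 without array 4. ATG16L2 was read by 1 probe. Its better-known relative ATG16L1, the subunit that places the enzyme on the membrane, had -0.14 ± 0.10 and lay below 0 on all 4 arrays (limma adjusted p = 0.229). The difference between the paralogs was not tested.

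The remaining conjugation genes had smaller differences. ATG7, the E1-like enzyme at the head of both conjugation pathways, had -0.31, 0.06, -0.32 and 0.11 on the 4 arrays, so that arrays 1 and 3 were low and arrays 2 and 4 were not. ATG3, the E2-like enzyme for the ATG8 proteins, had -0.13 ± 0.13 and lay below 0 on all 4 arrays. ATG10, the E2-like enzyme for ATG12, had 0.10 ± 0.07. ATG12, the ubiquitin-like modifier, had -0.01 ± 0.11, and its partner ATG5 had -0.07 ± 0.10. The cysteine proteases ATG4A, ATG4B, ATG4C and ATG4D, which trim ATG8 proteins and release them from lipid, ran from -0.04 to 0.06. The ATG4D probe was spotted 10 times, with an SD between single spots of 0.05 to 0.07 on an array, and the SD between its 4 array means was 0.03.

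Under the loess and normexp processing, none of the 5 ATG8 genes passed the test, and none reached an unadjusted p under 0.05 in limma. MAP1LC3B, whose lipidated protein is the common marker of autophagosomes, had 0.05, -0.01, 0.10 and -0.04 on the 4 arrays, a mean of 0.03 ± 0.06. Its interval of -0.10 to 0.15 included 0 (limma adjusted p = 0.847). MAP1LC3A, its relative LC3A, had -0.01, 0.13, 0.25 and 0.13, and its mean of 0.13 ± 0.11 was the highest of the 5 (limma adjusted p = 0.290). 3 of its 4 arrays lay above 0. GABARAP had -0.09, 0.12, -0.02 and 0.14, with a mean of 0.04 ± 0.11 (limma adjusted p = 0.809). GABARAPL1 had 0.10, 0.07, 0.06 and -0.05, with a mean of 0.05 ± 0.06 (limma adjusted p = 0.721). These GABARAP proteins act late, in closure of the autophagosome and its fusion, and both had arrays on either side of 0. GABARAPL2, or GATE-16, was the 1 ATG8 gene below 0 on every array, at -0.05, -0.05, -0.11 and -0.14 (mean -0.09 ± 0.05, limma adjusted p = 0.425). With median centring GABARAP (0.22) and MAP1LC3A (0.19) passed as higher in SB cells (limma adjusted p = 0.0196 and 0.0395). GABARAPL2 turned to 0.07 in that setting, and it, MAP1LC3B and GABARAPL1 did not pass. The transcript level does not report the lipidated protein.

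The cargo receptors had the lowest median of the groups, -0.19 over 2 genes, and neither passed. OPTN, or optineurin, a receptor for damaged mitochondria and bacteria, had -0.11, -0.33, -0.12 and -0.27 on the 4 arrays. All lay below 0, with a mean of -0.21 ± 0.11 and an interval of -0.34 to -0.07, yet the adjusted p was 0.0891 in limma. SQSTM1, the p62 receptor, which is itself degraded by autophagy, had -0.23, -0.14, -0.35 and 0.00. Array 4 thus showed no difference while the other 3 were low, and the mean was -0.18 ± 0.15 (interval -0.32 to -0.04, limma adjusted p = 0.164). Without array 4 the mean of SQSTM1 was -0.24 and the adjusted p 0.0324. With median centring in place of loess it was 0.10, so that the sign of SQSTM1 depended on the normalization.

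Under the loess and normexp processing, the lysosomal genes lay near 0. LAMP1 and LAMP2, abundant glycoproteins of the lysosomal membrane, had 0.02 ± 0.12 and 0.01 ± 0.06, and TFEB had 0.02 ± 0.13. LAMP1 had 0.08, 0.07 and 0.09 on arrays 1, 2 and 4 and -0.16 on array 3. LAMP1 and ATG3, whose promoters hold the palindrome, did not pass the test with loess. With median centring LAMP1 was 0.34 and TFEB 0.30 (limma adjusted p = 0.00452 and 0.00634), so both passed as higher in SB cells. LAMP2 was 0.11 in that setting (limma adjusted p = 0.201).

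Where several probes read one gene, most read alike. Of the 16 genes with more than 1 tested probe, 13 had probes of 1 sign, and the median spread between the probes of a gene was 0.0454 on the log2 scale. In 12 of the 16 the probes lay within 0.1 of each other. Of all 54 tested probes 2 passed an adjusted p of 0.05 in limma, both lower in SB cells, against 3.70% of all probes (1.32% higher and 2.38% lower). ATG7 and LAMP2, singled out after their values were seen, had the widest spreads, 0.168 and 0.289.

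The less bright ATG7 probe was the second that passed. Its array values of -0.14, -0.32, -0.32 and -0.35 gave -0.28 ± 0.10 (limma adjusted p = 0.0218), whereas the brightest ATG7 probe had -0.11 ± 0.23 (limma adjusted p = 0.481). The probes disagreed on arrays 2 and 4. For LAMP2, whose transcripts differ in the exon for the membrane anchor, the probe matched to the A transcript had -0.22 ± 0.19 (limma adjusted p = 0.120). The probes matched to the B and C transcripts had 0.01 ± 0.06 and 0.07 ± 0.20, and none of these passed. ATG13 and ATG16L1 followed, with spreads of 0.112 and 0.134. For ATG13 both probes were lowest on array 1, at -0.20 and -0.23, and highest on array 4, at 0.29 and 0.14.

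**Figure D3:**
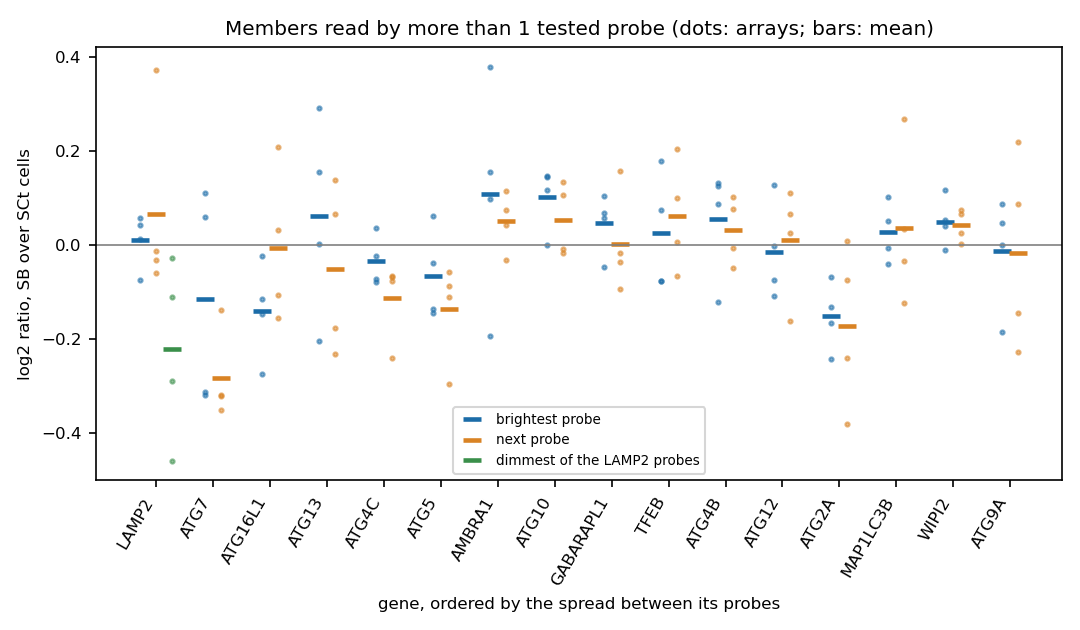
Log2 ratio of SB over SCt cells (y axis) for the 16 machinery genes with more than 1 tested probe (x axis), ordered by the spread between the probes of a gene. Dots are arrays and bars are means over arrays; ATG7 and LAMP2 have the widest spreads, 0.168 and 0.289.

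Of 115 other genes of the pathway, 109 were on the array and 107 were tested, and 6 (5.61%) passed, 1 higher and 5 lower in SB cells, against 3.51% of all genes (1.26% higher and 2.26% lower). Their median log2 ratio was -0.02. PRKAA2, the α2 catalytic subunit of AMPK, the energy sensor that activates ULK1, had 0.37, 0.45, 0.58 and 0.42 on the 4 arrays and was 1.37-fold higher in SB cells (mean 0.46 ± 0.09, limma adjusted p = 0.00148). It was higher on every array and passed without each array in turn, but its size depended on the processing: 0.83 with the scanner software's ratios, 0.76 with normexp without an offset and 0.24 with median centring. The paralog PRKAA1 was read by probes that disagreed: 0.06 ± 0.15 for the brightest and -0.33 ± 0.15 for another (limma adjusted p = 0.701 and 0.0195), a pair named after its values were seen. Of 28 tested regulators of mTORC1 and AMPK, PRKAA2 was the 1 that passed.

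The 5 genes that fell belong to several steps. ATF4, a transcription factor of the amino acid and stress response that drives several autophagy genes, had -0.40, -0.21, -0.36 and -0.35 (mean -0.33 ± 0.08, limma adjusted p = 0.00948). It was the 1 of 7 transcription factors that passed, and with median centring its log2 ratio was -0.01 (limma adjusted p = 0.938), so that its fall depended on the normalization. GAA, the lysosomal acid α-glucosidase that degrades glycogen, had -0.40, -0.37, -0.36 and -0.21 (mean -0.33 ± 0.08, limma adjusted p = 0.00872). NPC2, which hands cholesterol out of the lysosome, had -0.52, -0.15, -0.34 and -0.18 (mean -0.30 ± 0.17, limma adjusted p = 0.0350). GAA and NPC2 were the 2 of 29 tested lysosomal hydrolases and membrane proteins that passed. Of these 29, 20 lay below 0 with loess (69.0%), against 44.6% of all genes. With median centring 35.6% of all genes lay below 0. The matching share of the 29 is not given here, so whether their excess below 0 held in that setting was not shown. In that setting 26 of the other pathway genes passed as higher and 3 as lower in SB cells, beside 31.4% of all probes.

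The other falls were single genes of their lists. TAX1BP1, a ubiquitin-binding cargo receptor, had -0.24, -0.20, -0.32 and -0.29 (mean -0.26 ± 0.05, limma adjusted p = 0.0224), and was the 1 of 15 further receptors that passed. VMP1, an endoplasmic reticulum scramblase needed for autophagosome formation, had -0.31, -0.29, -0.22 and -0.14 (mean -0.24 ± 0.08, limma adjusted p = 0.0395), the 1 of 14 further core genes. Of 14 genes of fusion with the lysosome none passed in limma. An unadjusted limma p under 0.05 was reached by 3 of them, 2 higher and 1 lower, against 18.1% of all genes. VPS39, a subunit of the HOPS tether, had the highest of these 14 log2 ratios, 0.39 ± 0.42, of which array 3 gave 0.98. With median centring NPC2, VMP1 and TAX1BP1 also missed the threshold, at -0.09, -0.11 and -0.13 (limma adjusted p = 0.292, 0.186 and 0.112), while GAA passed at -0.26. The calls depended on single arrays: without array 1, ATF4, GAA and PRKAA2 still passed, without array 2 ATF4 and PRKAA2, and without array 3 PRKAA2 alone.

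**Figure D4:**
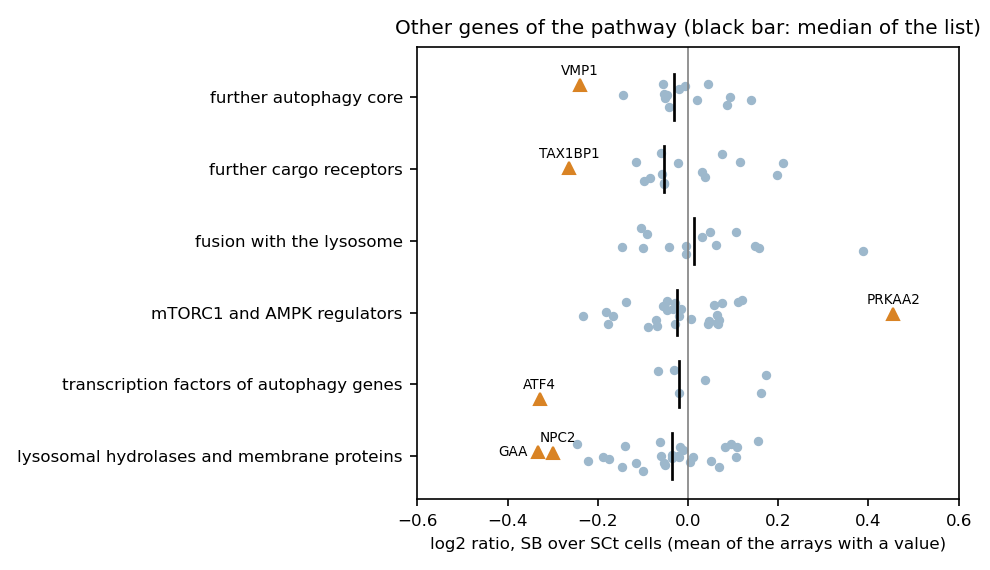
Log2 ratio of SB over SCt cells (x axis) of 107 other autophagy and lysosome genes by list (y axis), each dot a gene by its brightest tested probe and the black bar the median of the list. Orange triangles are the 6 genes past an adjusted p of 0.05; PRKAA2 lies at 0.46 and ATF4 and GAA at -0.33.

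Among the alternatives, the normalization within each array changed most how many machinery genes passed. Median centring shifts all ratios of an array by 1 constant, whereas loess also removes a trend of the ratio with brightness. With median centring 11 of the 37 passed, 8 higher and 3 lower in SB cells, while 31.4% of all probes passed. The 8 higher genes were ATG10, ATG9A, GABARAP, LAMP1, MAP1LC3A, TFEB, ULK2 and WIPI2, and the 3 lower ones ATG16L2, OPTN and UVRAG. LAMP1 moved from 0.02 to 0.34 and TFEB from 0.02 to 0.30. Among all probes that passed, 35.6% were higher in SB cells with loess and 62.6% with median centring. ATG16L2 stayed lower, at -0.35.

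**Figure D5:**
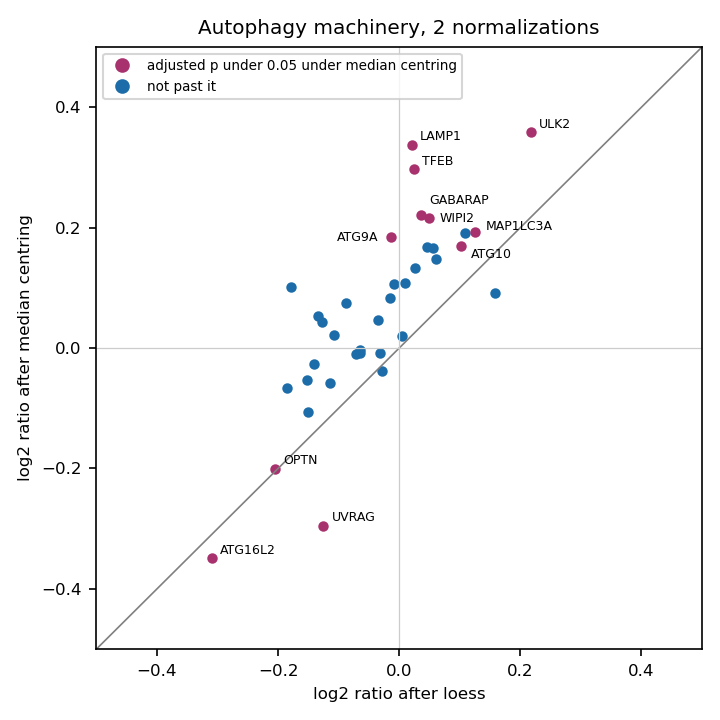
Mean log2 ratio of SB over SCt cells of the 37 autophagy machinery genes after loess (x axis) and after median centring (y axis). The diagonal marks equal values and purple points, which carry names, the 11 genes past an adjusted p of 0.05 with median centring. LAMP1 and TFEB lie above the diagonal, at 0.34 and 0.30 with median centring against 0.02 each with loess.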

How the data were processed

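The authors deposited, for each of 4 arrays, the scanner output of Feature Extraction 10.5.1.1, with the median intensity of each spot and of its local background on a linear scale, not normalized. Labelling took 15 μg of RNA. The same deposited files hold a log10 ratio, red over green, that the software had corrected for background and dye. The authors also deposited a series table on the log2 scale, which equalled the software's processed ratio to within 0.001 for 98.7% to 99.1% of probes, in the direction of SB over SCt, with column medians of -0.0167 to 0.0220. Its filtering was not given in the sources used here.

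Processing was done with limma 3.58.1 in R 4.3.3. Background was corrected by normexp (offset 50) over 44495 spots, and 1377 control spots were then removed. Outlier spots, 814 to 1168 per array, were left out, and 0 spots were saturated. Ratios were normalized by loess within arrays and averaged per probe (10 spots for 999 probes, 1 spot for 33128). Probes had to be well above background on all 4 arrays in one and the same channel, and were tested where at least 2 arrays had values, which left 28507 probes. The mean log2 ratio was tested against 0 with lmFit and eBayes, with an intercept alone, with Benjamini-Hochberg adjustment over all tested probes. With 4 arrays a sign-flip test of 1 gene cannot go below 0.125, so none was used. All arrays were on 1 slide and from 1 scan. The median half-width of a 95% interval was 0.133 on the log2 scale. The steps were run on simulated data whose dye effect varied smoothly with brightness, the kind of trend that loess removes. Such a run cannot show whether the trend in these arrays came from the dyes or from the lines.

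Probes were named by RefSeq accession without version (GRCh38.p14): 24826 matched and 9301 did not. The array was designed on an earlier build, so no probe positions are given. The genes and lists were chosen with earlier results of these data known, and the lists have no test of their own. Full values are given for machinery genes past the threshold, the 3 highest and 3 lowest, the ATG8 genes and the receptors, and, from the other lists, for genes past the threshold with 1 sign on all 4 arrays. Alternatives covered the source of the values, the normalization, the background, the filters, outlier spots, the variance model, the methods' t-test, the choice of probe and leaving out each array.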

Additional observations from a re-analysis of the deposited data

Results flagged for a closer look

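LAMP1 was singled out among 42 genes with 4 values because 1 array stood far from the others: array 3 had a log2 ratio of -0.16, while the other arrays had 0.07 to 0.09. The gap was 0.918 of the whole range of the 4 arrays, above the 95% critical value of Dixon's test. Chance marks about 5% of such sets, and 1 of the 42 was marked. The cause was not tested. Without array 3 the log2 ratio of LAMP1 was 0.08.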

How the results depend on the processing

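The number of machinery genes past the threshold was 1 under the loess and normexp processing. It was 2 with the scanner software's ratios (ATG16L2 and UVRAG) and 2 when any probe of a gene could pass (ATG16L2 and ATG7), 11 with median centring, and 0 to 2 without 1 array (0 without array 1, 2 or 3, and 2, ATG16L2 and SQSTM1, without array 4). Of the 107 other pathway genes, 6 passed, against 3 with the software's ratios, 3 with the series table, 3 with normexp without an offset, 3 with the trend and robust options of eBayes, 29 with median centring (26 higher), and 1 to 10 without 1 array (1 without array 3, 10 without array 4). Over all probes 3.70% passed under the loess and normexp processing, and 31.4% with median centring, 62.6% of those higher. The share was 2.65% with the software's ratios, 2.43% with the series table, 2.87% without an offset and 2.03% with trend and robust options. It was 0.717% without array 3 and 6.94% without array 4. Of all probes, 1055 passed, against 698 with the series table, 579 with trend and robust options (17.6% of them higher), 8939 with median centring, and 204 to 1977 without 1 array (204 without array 3, 421 without array 2, 638 without array 1, 1977 without array 4). The methods' t-test, one-sample on 4 log2 ratios, left 0 machinery genes, 0 other pathway genes and 0 probes after Benjamini-Hochberg adjustment (7 of the 37 and 3936 probes at an unadjusted p under 0.05), and MTDH kept -3.18 with an adjusted p of 0.143. The median of the machinery was 0.0747 with median centring, and ATG9A turned from -0.01 to 0.19 (limma adjusted p = 0.0372). The cause of these changes was not tested. The log2 ratio of ATG16L2 was -0.42 to -0.27 over 15 alternatives, and it passed in 11 of them. PRKAA2 passed in 14 of 15. NPC2, TAX1BP1 and VMP1 each passed in 6 of 15. Of 553 machinery values under single alternatives, 506 kept their direction and their side of the threshold, and 31 below it changed sign. The settings that changed only the test, the variance model or the filters kept the log2 ratios, so no sign could change there. With 1 of the 37 past the threshold to begin with, most values could easily keep their side. The count is thus no measure of how robust the values are. Each array sets SB against SCt cells, so the test of the log2 ratios against 0 already used that pairing. There is thus 1 group of ratios, and no further paired analysis was run.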
